A study of Mus musculus with 8 samples.

Results

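The 57 genes described here encode homeobox, T-box and related transcription factors that direct embryonic patterning outside the Hox clusters. They comprise 8 Pax, 3 Gata, 7 Tbx, 4 Lhx, 4 Irx and 5 Nkx genes, Six2, Six3 and Six6, a pair each from the Sim, Otx, Barhl, Evx, Meis, Hand, Emx, Dlx, Msx and En families, and Isl1, Alx4 and Pitx1. They were chosen by name, 57 of 21887 protein-coding genes, and every region of the deposited list that lay in one of them or within 1000 bp of it was taken, which gave 541 of 220894 regions. Bisulfite sequencing of captured genomic DNA, which reads DNA methylation, was carried out on 8 mouse cell lines. There were 4 IDH mutant lines from brain tumours and 2 lines of immortalized astrocytes wild-type for IDH, all from mice whose genotype included N::TVA, Cdkn2alox/lox and Atrxlox/lox. The remaining 2 were IDH wild-type lines from brain tumours labelled RAS glioma, from N::TVA; Cdkn2alox/lox mice. All 8 lines shared N::TVA, floxed Cdkn2a and a mixed strain background (C57Bl/6, 129 and FVB/n), and 1 astrocyte line, IWT-PDGFA, expressed exogenous wild-type IDH1. Mutant and wild-type tumour lines therefore also differ in Atrx genotype, and mutant tumour and astrocyte lines in tissue. The labels give no age, and all lines were established in culture, in serum-containing medium. The deposited file has 1 score per region for all lines together. It has no methylation level and no value for a single line, so the depth of each line is unknown, no IDH comparison was made, and replicate error is unknown throughout. Intervals below cover the sampling of genes or regions only, and neither genes nor regions are replicates of a condition.

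Homeobox factors bind DNA through a homeodomain, T-box factors through the T-box, Pax factors through the paired domain and Gata factors through zinc fingers. Genes of these kinds are silent in most adult cell types and active in restricted embryonic domains. Their promoters commonly lie in long CpG-rich stretches that Polycomb proteins occupy where the gene is off, and such promoters often gain DNA methylation in tumours. The deposited list gives positions and a pooled score, so what follows concerns where the list holds these genes and how high the score was there, and not how methylated they were.

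All 57 genes had at least 1 region (exact 95% interval 93.7 to 100%), where 83.8% of protein-coding genes did. A region lay within 1000 bp of either end of the gene in 55 members (96.5%, 87.9 to 99.6), against 76.5% of protein-coding genes, and at both ends in 35 (61.4%, 47.6 to 74.0), against 29.5%. The 2 members without a region at an end were Gata4, a cardiac and endodermal regulator, and Alx4, a craniofacial and limb homeobox gene. Both had regions inside the gene, 19 in Gata4 and 6 in Alx4. For 40 members the promoter table lists a start and so a strand. All 40 had a region at the 5′ end (exact 95% interval 91.2 to 100%), against 71.9% of the protein-coding genes with a listed start, and 24 of 40 (60%, 43.3 to 75.1) had one at the 3′ end, against 33.8%. No region was shared by 2 members, and 1 of the 541, at the 3′ end of Nkx6-2, also lay within 1000 bp of another protein-coding gene (Inpp5a). The list of members was proposed with such counts known, so no test of enrichment was made. Near the 1000 bp limit, the last regions inside it had scores of 822 at Pax8 (922 bp from the gene), 810 at Gata3 (958 bp) and 272 at Pax6 (986 bp). The first ones beyond it had scores of 321 at Msx2 (1021 bp), 333 at Gata3 (1048 bp) and 116 at Msx1 (1096 bp).

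Coverage of these genes in the region list was broad as well as frequent. The DNA was captured before sequencing, and the part of the capture targets in any count or coverage given here was not tested. Regions covered a median of 28.8% of the gene and its 1000 bp flanks, with quartiles of 13.7 and 44.7%, against a median of 8.89% over all protein-coding genes. The number of regions per 10 kb had a median of 5.29 in the members and 1.62 in all protein-coding genes. The members were shorter, with a median gene length of 11147 bp against 17169 bp. Among genes with a region, regions per 10 kb fell with gene length. Spearman rho was -0.82 across the 57 members and -0.66 across 18342 protein-coding genes with a region, which are not independent. Genes without a region were left out, and a short gene with 1 region already has a high number per 10 kb, so part of this relation is built in. Each member was therefore also ranked by covered share among protein-coding genes of similar length, of which there were 568 to 2762 per member. In that ranking 38 of 57 members stood at or above the 75th percentile, where 25% of genes stand by construction, and 2 stood below the middle. Those 2 were Tbx18 (41.3), a regulator of heart and urinary tract mesenchyme, and Pax3 (46.6), which acts in neural crest and muscle precursors.

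The compact heart and neural crest regulator Hand1 had the largest covered share, with 5 regions over 79.9% of its length and flanks. Irx5 followed with 65.2%, the kidney and head organizer gene Lhx1 with 64.4%, and Evx1, an interneuron and posterior patterning gene, with 64.1%. At the other end, regions covered 5.77% of Meis2, which is 206274 bp long, and 5.81% of Pax3. The heart gene Tbx20 had the fewest regions per 10 kb (0.72) and the cortical patterning gene Emx2 the most (12.7). Against genes of similar length, Pax6, the eye and forebrain regulator, stood highest at the 99.9th percentile, with 19 regions over 41.7% of its sequence. Tbx3, Evx2, Lhx1 and Gata3 stood at 99.5, 99.4, 99.2 and 99.1. In the plot of covered share against gene length, most members lie in the upper part of the cloud of other genes at their length.

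**Figure D1:**
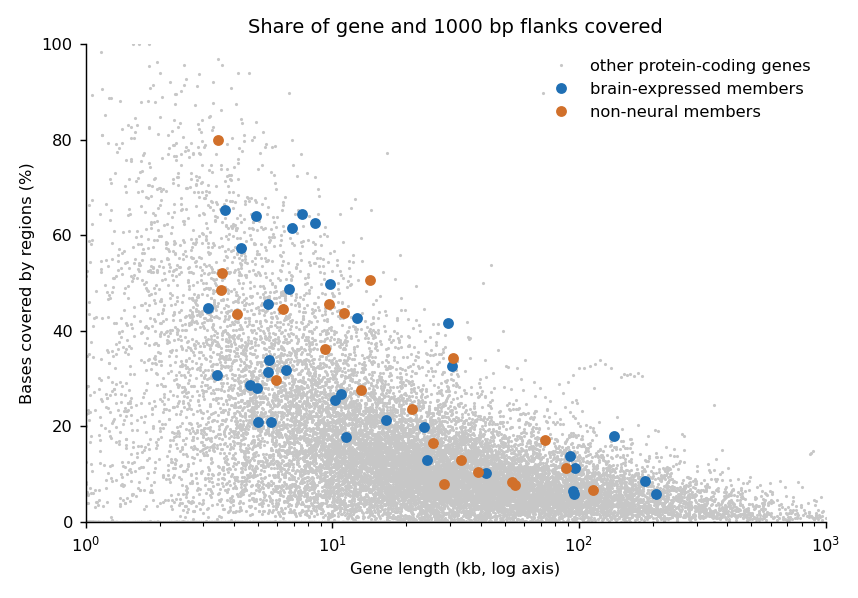
Share of bases covered by regions in each gene and its 1000 bp flanks (%) against gene length (kb, log axis from 1 to 1000 kb) for protein-coding genes (grey), brain-expressed members (blue) and non-neural members (orange). Hand1 is the highest member at 79.9%, and the median member lies at 28.8% against 8.89% for all genes.

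Coverage around the starts of these genes fell off less with distance than it did over all genes. Starts were taken as the most upstream one listed for each gene, which was the 5′ end of the annotated gene in 26 of 40 members and lay inside the gene in 14. Over the 17492 protein-coding genes with a listed start, regions covered a mean of 38.7% of bases in the 1000 bp upstream and 38.4% in the 1000 bp downstream. The mean was 8.73% between 5 and 3 kb upstream and 9.56% between 3 and 5 kb downstream. In the 40 members the corresponding means were 42.9 and 49.8% next to the start and 30.5 and 33.1% in the outer bands. The members were thus 1.11 and 1.30 times the mean of all genes beside the start, and 3.50 and 3.46 times in the outer bands. Between 1 and 3 kb they were 3.12 times it upstream and 2.39 times downstream. In the band from 3 to 5 kb downstream 37 of 40 members had some covered sequence (92.5%), against 32.3% of all genes. These bands extend past the 3′ end in short genes. Over the whole 10 kb around the start the covered share had a median of 39.4% in the members, from 13.3% at Barhl1, which patterns cerebellar and hindbrain neurons, to 66.9% at Irx3, and a median of 16.9% over all genes.

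**Figure D2:**
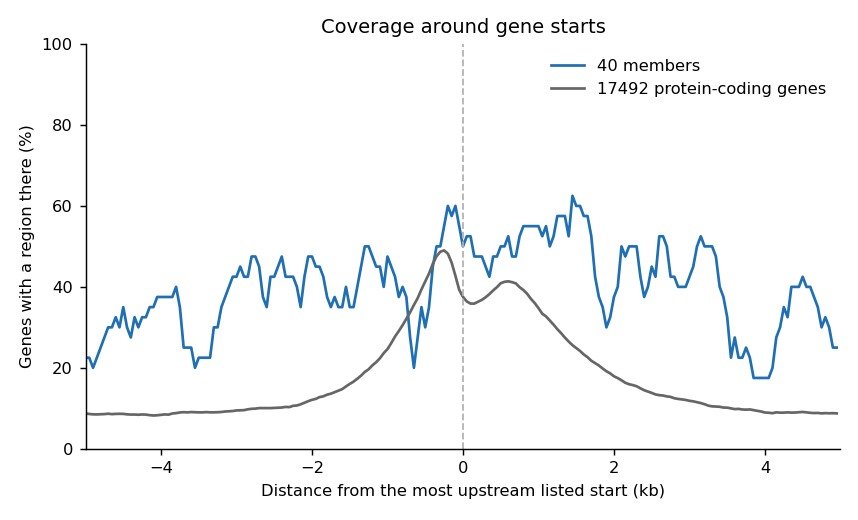
Percentage of genes with a region at each distance from the most upstream listed start (kb, upstream to the left), for 40 members (blue) and 17492 protein-coding genes (grey). The grey curve falls away on both sides of the start, to means of 8.73 and 9.56% in the outermost bands, and the blue curve keeps means of 30.5 and 33.1% there.

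The sequence around the start was not always touched by a region. The promoter table (RefSeq, GRCm38.p6) gives 49 start windows for the 40 members, each from 250 bases before to 50 after a start. It gave no entry for Pax3, Gata4, Gata6, Tbx2, Tbx3, Tbx5, Tbx15, Sim2, Otx1, Irx1, Irx5, Hand1, Dlx5, Dlx6, En2, Alx4 or Pitx1. A region shared at least 1 bp with 36 of the 49 windows (73.5%, exact 95% interval 58.9 to 85.1), against 58.3% of the 21263 windows of all protein-coding genes, and with at least 1 window in 31 of the 40 genes. The members' windows were richer in CpG, the dinucleotide whose cytosine is methylated, with a median of 16 CpGs against 13. Coverage followed CpG number in all genes, from 21.9% of windows with at most 5 CpGs to 88.2% with 11 to 20 and 86.3% with 21 to 30, and was lower again, 56.6%, with 31 or more. Members were covered in 18 of 21 windows with 11 to 20 CpGs (85.7%), in 10 of 12 with 21 to 30 (83.3%) and in 3 of 8 with 31 or more (37.5%, 8.52 to 75.5). With 6 to 10 CpGs, 4 of 7 member windows were covered (57.1%, 18.4 to 90.1), against 60.01% of all windows, and the 1 member window with 5 or fewer, at Lhx8, was covered. Shares of members and of all genes were thus close in the classes from 6 to 30 CpGs. With 31 or more the member share was lower, and its interval included the share of all genes.

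**Figure D3:**
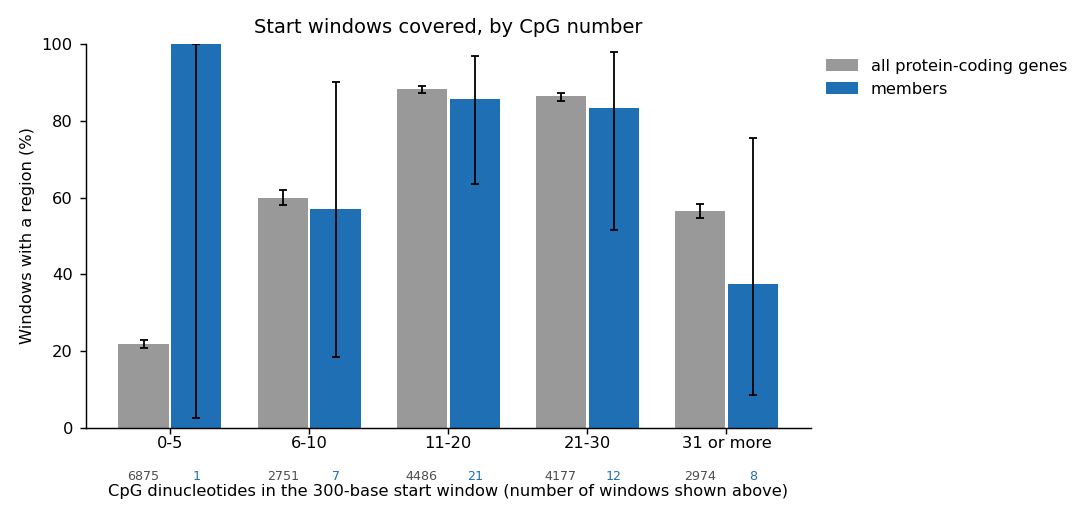
Percentage of 300-base start windows that share at least 1 bp with a region, by number of CpGs in the window, for all protein-coding genes (grey) and members (blue), with exact 95% intervals and the number of windows under each bar. Both sets are lower with 31 or more CpGs (56.6 and 37.5%) than with 11 to 20 (88.2 and 85.7%).

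The 250 bases before 7 of these starts are printed to show the range, 5′ to 3′ in lower case with each CpG in capitals, from RefSeq on GRCm38.p6. Barhl2, which specifies spinal and forebrain neurons, and Nkx6-1, a ventral neural tube and beta cell factor, were the members with most CpGs among windows that no region touched. Their windows held 42 and 40 CpGs, and the nearest regions lay 256 and 340 bp from the start. The first listed start of Otx2, the anterior brain organizer gene, had 6 CpGs in its window, and the nearest region lay 564 bp away.
Barhl2 (chr5:106458167-106458416, minus strand): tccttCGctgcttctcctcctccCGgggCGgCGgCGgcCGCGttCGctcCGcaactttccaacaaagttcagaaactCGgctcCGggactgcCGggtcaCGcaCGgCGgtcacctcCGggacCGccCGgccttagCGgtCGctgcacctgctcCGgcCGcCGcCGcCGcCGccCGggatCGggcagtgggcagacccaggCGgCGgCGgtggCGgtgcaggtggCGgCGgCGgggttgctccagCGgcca
Nkx6-1 (chr5:101664712-101664961, minus strand): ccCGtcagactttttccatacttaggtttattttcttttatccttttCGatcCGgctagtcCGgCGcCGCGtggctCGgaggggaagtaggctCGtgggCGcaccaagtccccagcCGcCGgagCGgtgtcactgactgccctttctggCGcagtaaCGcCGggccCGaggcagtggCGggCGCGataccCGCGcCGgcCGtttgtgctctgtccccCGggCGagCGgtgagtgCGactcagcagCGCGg
Otx2 (chr14:48667645-48667894, minus strand): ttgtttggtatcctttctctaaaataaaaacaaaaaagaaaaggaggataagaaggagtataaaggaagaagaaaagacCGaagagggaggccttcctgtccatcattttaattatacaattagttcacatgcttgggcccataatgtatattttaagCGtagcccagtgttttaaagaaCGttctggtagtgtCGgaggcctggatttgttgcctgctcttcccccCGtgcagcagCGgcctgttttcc

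The other 4 sequences come from windows that a region touched. Emx2 had a region of 330 bp with a score of 1133, above 99.7% of regions of that width, over 63.0% of a window with 26 CpGs, the start included. Msx1, a craniofacial and limb bud regulator, had a region with a score of 1336 (percentile 92.1) over 81.7% of a window with 29 CpGs, and the region ended 6 bp before the start. At Tbx1, the pharyngeal arch regulator, 1 region of 2320 bp covered the whole window, and its score of 485 stood at percentile 1.45 among regions of like width. At Lhx8, a basal forebrain cholinergic neuron factor, the window held 4 CpGs, and a region of 1600 bp with a score of 308 stood at percentile 0.461 of its width class.
Emx2 (chr19:59458440-59458689, plus strand): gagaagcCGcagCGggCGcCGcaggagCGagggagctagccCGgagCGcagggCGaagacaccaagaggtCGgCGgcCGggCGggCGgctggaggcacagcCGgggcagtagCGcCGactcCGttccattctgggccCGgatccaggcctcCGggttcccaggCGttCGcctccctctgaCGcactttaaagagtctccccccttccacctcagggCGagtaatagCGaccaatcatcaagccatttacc
Msx1 (chr5:37824586-37824835, minus strand): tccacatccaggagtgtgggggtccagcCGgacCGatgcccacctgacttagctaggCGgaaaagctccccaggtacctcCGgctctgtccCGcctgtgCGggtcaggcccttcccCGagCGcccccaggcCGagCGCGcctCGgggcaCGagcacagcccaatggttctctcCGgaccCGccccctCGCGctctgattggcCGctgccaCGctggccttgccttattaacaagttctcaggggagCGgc
Tbx1 (chr16:18590672-18590921, minus strand): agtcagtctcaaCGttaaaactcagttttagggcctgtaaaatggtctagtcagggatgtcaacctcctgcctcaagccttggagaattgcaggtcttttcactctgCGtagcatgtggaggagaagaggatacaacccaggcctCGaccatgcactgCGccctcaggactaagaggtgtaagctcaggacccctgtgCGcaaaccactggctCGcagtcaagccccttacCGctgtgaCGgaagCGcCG
Lhx8 (chr3:154330561-154330810, minus strand): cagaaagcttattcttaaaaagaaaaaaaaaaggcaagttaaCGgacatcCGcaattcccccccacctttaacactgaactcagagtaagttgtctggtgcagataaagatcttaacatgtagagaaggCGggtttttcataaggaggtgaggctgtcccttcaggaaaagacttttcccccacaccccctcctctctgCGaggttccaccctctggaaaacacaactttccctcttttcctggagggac

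Although they were densely covered, these genes had low scores for the width of their regions. The score is the authors' own value and rises with region width in this list, so each score was also given as a percentile, the share of regions of like width (at most 50 bp wider or narrower) that scored lower, with ties counted as 0.5. Each region counts as a tie with itself. The number of regions of like width is not given here and may be small for the widest regions. The 541 regions had a median score of 380 (95% order-statistic interval 350 to 423), against 477 over the 127978 regions in or near any protein-coding gene, at the same median width of 490 bp. Their median percentile was 29.9 (26.9 to 35.1), with quartiles of 11.9 and 56.5, against 48.9 for the regions of all protein-coding genes. Percentiles under 25 belonged to 236 of 541 regions (43.6%), against 25.4% of the regions of protein-coding genes and 23.1% of all regions. Percentiles of 75 or more belonged to 62 (11.5%), against 19.4% of the regions of protein-coding genes and 20.9% of all regions. By gene, the median percentile was under 50 in 49 of 57 members (86.0%, exact interval 74.2 to 93.7), against 54.6% of the protein-coding genes with a region. A score of 1000 or more was reached by 42 of the 541 regions (7.76%), against 13.4% of all regions. At least 1 such region lay in 28 of 57 members (49.1%), against 42.2% of protein-coding genes. Both medians of percentile come from single pooled values per region, and which lines contribute to a low score cannot be told apart.

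Percentiles also varied with place in the genome, and those values are given beside the members'. Over all regions the median percentile was 54.0 between genes, 51.2 in gene bodies and 40.6 at gene ends. In the members it was 31.2 in gene bodies (364 regions, interval 27.9 to 38.3) and 27.9 at gene ends (177 regions, 19.4 to 35.6). Regions over a listed start window had a median percentile of 16.7 in the members (36 regions, 7.47 to 39.2) and 35.6 over all genes (11296 regions). The median scores of these regions were 327.5 and 561, at median widths of 510 and 730 bp, so these scores are not matched for width. The 733 regions that lay beyond 1000 bp but within 50 kb of a member had a median percentile of 41.3 (37.9 to 45.1). That median lay between those of the members and of the whole list (50). Of the 733, 588 lay between genes, with a median of 43.4 (38.8 to 48.1), against 54.0 over all regions between genes. The 96 in bodies of other genes had a median of 40.5 (29.6 to 49.0). The 49 at ends of other genes had 27.0 (18.9 to 38.1), close to the 27.9 at the members' ends. The part of place or of sequence composition in the members' low scores was not tested.

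**Figure D4:**
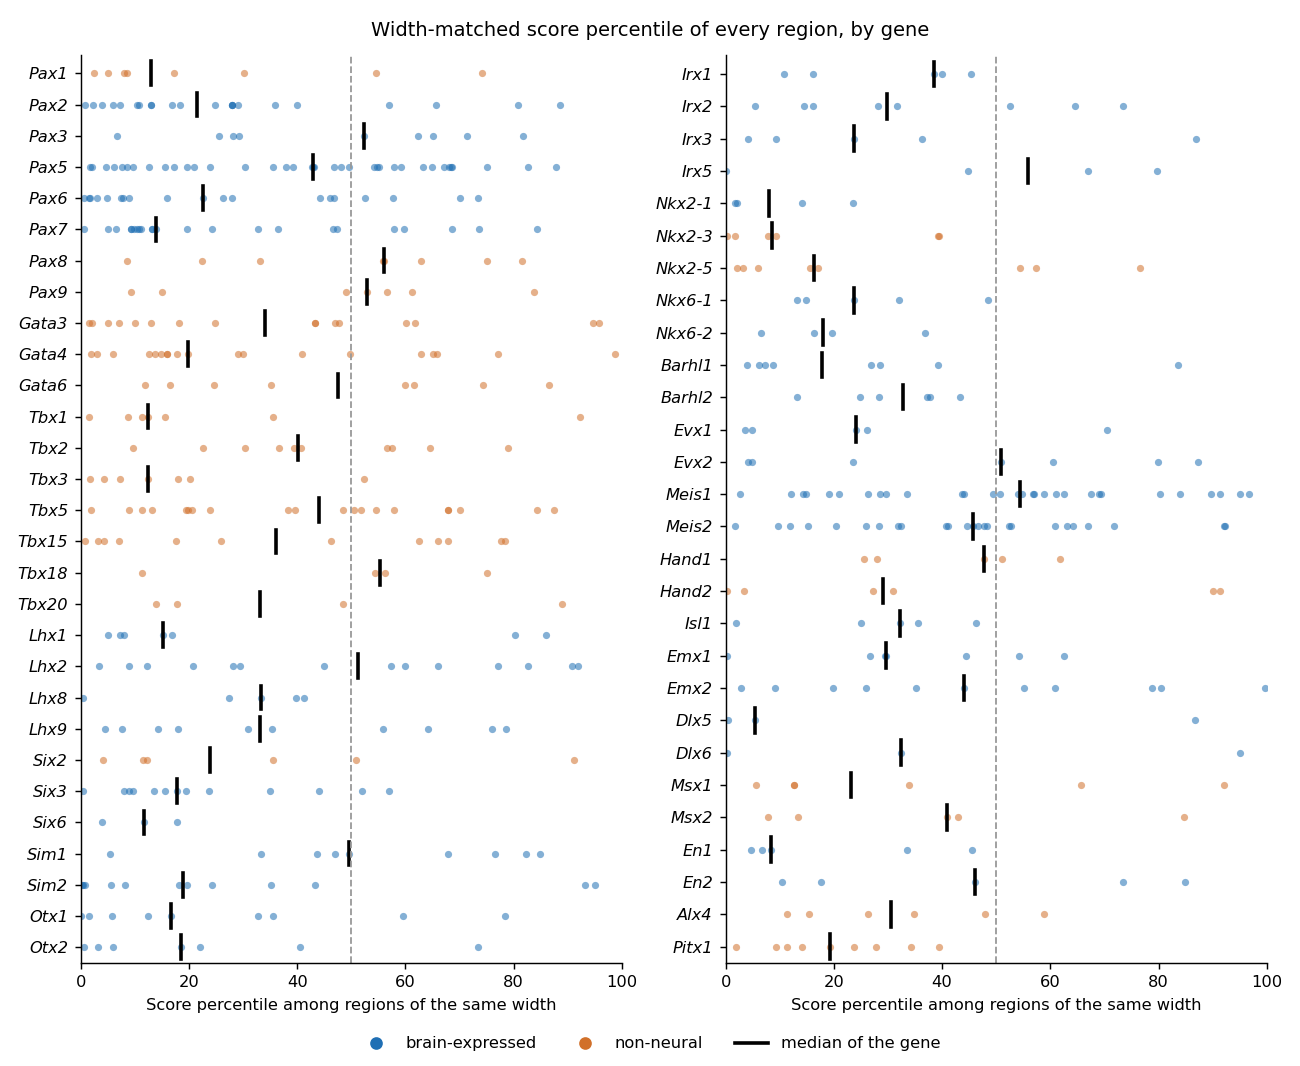
Width-matched score percentile of each region (dots, 0 to 100), 1 row per gene in family order, for brain-expressed (blue) and non-neural (orange) members, with the median of the gene as a black bar and the middle of the scale dashed. The bar lies left of the middle in 49 of 57 genes, from 5.45 at Dlx5 to 56.0 at Pax8.

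The lowest medians belonged to genes of several families. Dlx5, a forebrain interneuron and jaw patterning gene, had 3 regions with scores of 276, 528 and 1178 and a median percentile of 5.45. The last of these, 660 bp wide, was high for its width (86.8), and the others were 1270 and 2000 bp wide. Nkx2-1, the ventral forebrain, lung and thyroid factor, had 4 regions with scores of 187, 116, 337 and 198 from the 5′ to the 3′ end, all at or below the 23.5th percentile of their width (median 8.11). En1, a midbrain and hindbrain patterning gene, had scores of 178, 422, 375, 205 and 421 from the 5′ to the 3′ end (median percentile 8.30). Nkx2-3, a gut and spleen mesenchyme factor, had 6 regions with scores from 150 to 602 (median percentile 8.61). Six6 (11.6), an eye and pituitary gene, Tbx1 (12.4), the limb and heart gene Tbx3 (12.5) and Pax1 (12.9), which acts in the developing vertebrae, followed. Wide regions with low scores were common to several of them, as at Tbx1, where 2320 bp over the start scored 485, and at Tbx3, where 3200 bp at the higher-numbered end scored 821 (percentile 17.9).

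Even the highest medians stood little above the middle of the list. They were 56.0 at Pax8, a thyroid and kidney factor, 55.8 at Irx5, 55.3 at Tbx18, 54.4 at Meis1, 52.8 at Pax9, 52.4 at Pax3, 51.1 at Lhx2 and 50.9 at Evx2. Meis1, a homeobox cofactor of Hox proteins in blood and limb, had 30 regions with a median score of 716.5, and 5 of them scored 1000 or more. Irx5 combined a score of 236 over 1450 bp, at percentile 0.083 of its width class, with 1103, 552 and 811 at higher coordinates.

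The highest single scores occurred in genes with low medians, such as Gata4 and Lhx1, and in genes with medians near the middle, such as Lhx2 and Meis1. Gata4 held the highest score of the set, 2463, in a region of 670 bp inside the gene (chromosome 14, 63205261 to 63205930, percentile 98.8), while its 19 regions had a median percentile of 19.9 and the lowest score was 121. Next came 1621 at Gata3, a T cell and inner ear regulator, at the 5′ end of the gene, and 1608 at Lhx1 in a region of 2670 bp inside the gene (chromosome 11, 84520581 to 84523250). The forebrain gene Lhx2 reached 1586, Meis1 1583, the nephron progenitor gene Six2 1507, the kidney and midbrain gene Pax2 1406 and Meis2 1341. In 32 of 57 members the highest score lay in the gene body and in 25 at an end. Of all member regions, 364 lay in gene bodies and 177 at gene ends. The place of the highest score was not counted over all protein-coding genes. The map of 6 members shows Lhx1 with 1 high and wide region inside the gene, Emx2 with its peak over the start, and Nkx2-1 low throughout.

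**Figure D5:**
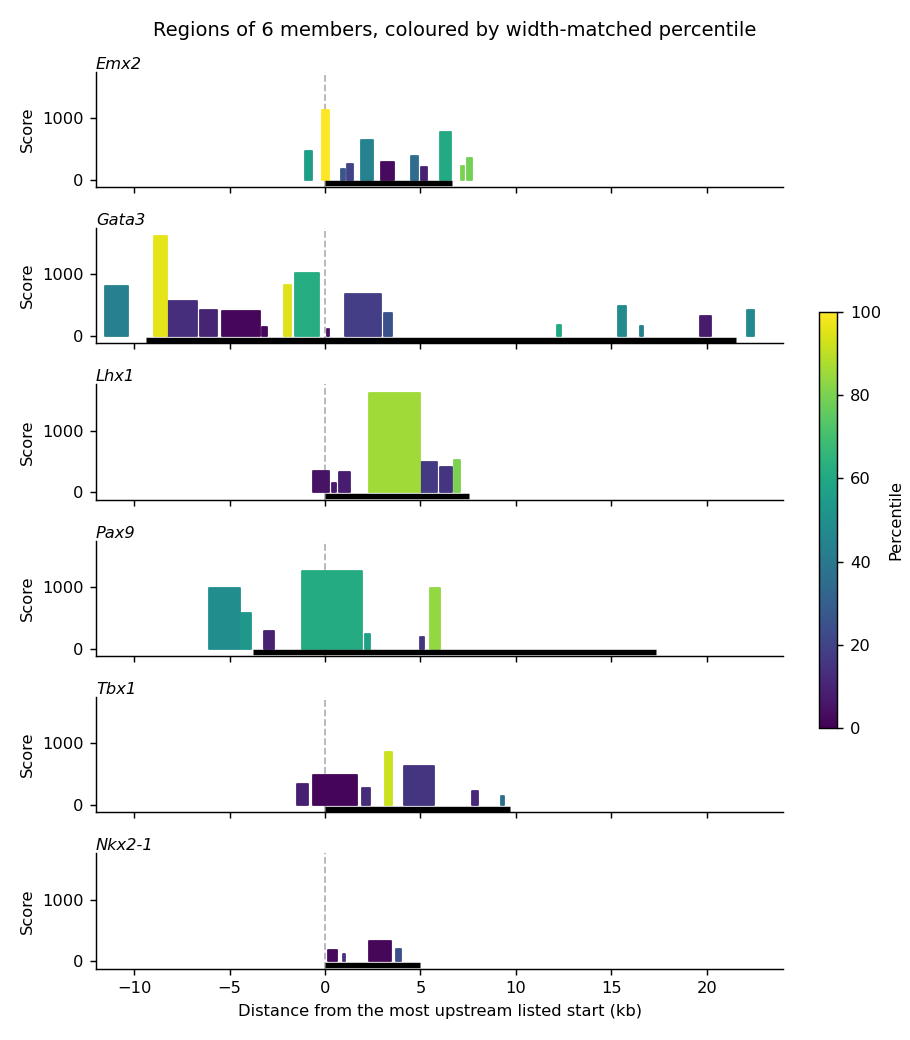
Regions of 6 members as boxes placed by distance from the most upstream listed start (kb, dashed line at 0), with height as the pooled score and colour as the width-matched percentile; the black bar is the annotated gene. The tallest boxes are 1621 in Gata3 and 1608 in Lhx1, and the tallest in Nkx2-1 is 337.

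The Pax genes, which build the eye, midbrain, kidney, muscle and vertebrae, spanned nearly the whole range of the set. Their 133 regions had a median percentile of 29.1 (22.5 to 42.8), with gene medians of 12.9 at Pax1, 13.9 at Pax7, 21.5 at Pax2, 22.5 at Pax6, 42.9 at Pax5, 52.4 at Pax3, 52.8 at Pax9 and 56.0 at Pax8. Regions lay at both ends in 2 of the 8 Pax genes (25%), near the 29.5% of all protein-coding genes. In Pax6 scores ran from 141 to 1076, with 272 and 492 at the 5′ end and the highest value in the last region, near the 3′ part of the gene. Pax7, a muscle stem cell and dorsal neural tube gene, lies on chromosome 4 in the 25 Mb that begin at 120 Mb, where all 4444 regions had a median percentile of 36.8 (35.5 to 38.2). The 23 Pax7 regions had scores from 112 to 1103, and whether the segment bears on their low median was not tested.

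Among genes of heart, limb and other mesoderm, the 7 Tbx genes had 64 regions with a median percentile of 36.1 (19.4 to 50.5), lowest at Tbx1 (12.4) and highest at Tbx18 (55.3). All 7 had a region at an end, where 76.5% of protein-coding genes did. The 3 Gata genes had 43 regions with a median of 29.1 (16.0 to 47.7), from 19.9 at Gata4 through 34.0 at Gata3 to 47.5 at Gata6, an endoderm and heart gene. Hand1 and Hand2 differed in covered share, 79.9 and 48.5%. Hand1 regions scored 815, 700, 1016, 155 and 650 in order of coordinate. Those of 700 and 1016 overlapped the gene, and the others lay in its flanks. Hand2, a heart and limb gene, had scores of 467, 308, 170, 346, 485 and 1217 from the 5′ to the 3′ end. The 308 lay over its start (750 bp, percentile 3.31) and the 485 within the gene (280 bp, percentile 91.3). The 1217 came from a region of 4730 bp that began 574 bp past the 3′ end (percentile 90.0). The 4730 bp region was the widest of the set, so its percentile may rest on few regions of like width. Alx4 and the hindlimb and pituitary gene Pitx1 had medians of 30.5 and 19.2, and no Pitx1 region scored above 523.

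The 5 Nkx genes were the lowest of the larger families. Their 27 regions had a median score of 246 and a median percentile of 15.6 (6.58 to 32.0), and none reached a score of 1000. Gene medians ran from 8.11 at Nkx2-1 through 8.61 at Nkx2-3, 16.4 at the heart gene Nkx2-5 and 17.99 at the oligodendrocyte and ventral neural tube gene Nkx6-2 to 23.7 at Nkx6-1. All 5 had regions at both ends, where 29.5% of protein-coding genes did. They are only 3422 to 6325 bp long, so much of each gene lies within 1000 bp of an end. Six2, Six3 and Six6 had a median of 16.6 (9.64 to 35.5) over 22 regions, from 11.6 at Six6 to 23.9 at Six2. At Six2 the wider of 2 regions at the 5′ end had 3880 bp and a score of 886. It stood at percentile 4.17 of its width class, which may hold few regions. Another region, of 1020 bp in the gene, scored 1507 (91.1).

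The 4 Lhx genes, LIM homeobox regulators of neuron identity, had 36 regions with a median percentile of 32.1 (16.9 to 57.3), from 15.2 at Lhx1 to 51.1 at Lhx2. In Lhx2, the 5 regions at and after the 5′ end scored 1553, 1000, 1586, 861 and 1323, and the next 3 scored 323, 265 and 692. The 4 Irx genes had 22 regions with a median of 34.0 (14.5 to 52.5), from 23.8 at Irx3 to 55.8 at Irx5, and covered shares between 44.7 and 65.2%. In families of 2, gene medians were 16.6 and 18.5 at Otx1 and Otx2, 18.9 at Sim2 and 49.6 at Sim1, 17.8 and 32.8 at Barhl1 and Barhl2, 24.2 and 50.9 at Evx1 and Evx2, 29.6 and 44.0 at Emx1 and Emx2, and 23.2 and 41.0 at Msx1 and Msx2. En1 had 8.30 and En2, which patterns the cerebellum, 46.1. Dlx5 had 5.45 and its neighbour Dlx6 32.4. Meis1 and Meis2 had 54.4 and 45.8, and their 55 regions had the highest family median, 48.4 (40.8 to 56.9). Isl1, a motor neuron and heart progenitor gene, had 5 regions with a median of 32.3. The interval of Meis lay above those of the Nkx, Otx and Barhl families, of Pitx1 and of Six2, Six3 and Six6 together, and overlapped those of the other families that have one. No test between families was made.

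Members were divided by their main textbook sites of expression into 35 brain-expressed genes, such as Pax6, Otx2 and Lhx2, and 22 non-neural genes, such as Tbx5, a forelimb and heart gene, Nkx2-5 and Pax9. The classes gave close values on most measures. A region at an end was found in 35 of 35 brain-expressed genes (exact interval 90.0 to 100%) and 20 of 22 non-neural genes (90.9%, 70.8 to 98.9), and regions at both ends in 22 and 13. The median covered share of the gene was 28.8 and 28.6%. The median percentile of regions was 29.9 in both classes, over 354 brain-expressed regions (interval 26.9 to 35.4) and 187 non-neural regions (20.5 to 39.5). The median score was 364.5 in brain-expressed and 408 in non-neural genes, with overlapping intervals (337 to 427 and 346 to 466). Around the listed start, the covered share of the 10 kb had a median of 34.7% in 27 brain-expressed and 45.3% in 13 non-neural genes, with ranges of 13.3 to 66.9 and 27.5 to 60.9. With genes classed as having main sites of both kinds left out, 14 brain-expressed and 15 non-neural genes remained, with median percentiles of 29.5 and 27.9. Pax5, also a main regulator of B cells, was classed as brain-expressed alone, so this class is in doubt. It held 37 of the 146 regions of the remaining brain-expressed genes. The comparison without Pax5 was not tested. These values describe the region list, since no line's expression or methylation of these genes was measured here.

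Genes of the same families outside the set were close to the members on several measures, and lower in covered share ranked among genes of similar length. Of 43 such paralogs, 41 had a region (95.3%), 38 had one at an end (88.4%, exact interval 74.9 to 96.1) and 22 had regions at both ends (51.2%). Pax4, a pancreatic islet gene, and Crx, a photoreceptor gene, had none. Among genes of similar length, 23 of 43 paralogs stood at or above the 75th percentile of covered share, against 38 of 57 members. The lower quartiles of that rank were 47.0 in paralogs and 64.9 in members, and the medians 76.4 and 83.1. The covered share had a median of 27.2%, and the 244 paralog regions had a median score of 353 and a median percentile of 27.0 (22.9 to 31.3). Gene medians under 50 were found in 35 of the 41 paralogs with a region. The interval of the paralogs' median percentile overlapped that of the members.

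In 4 pairs the members lie within 200 kb of each other. Dlx6 and Dlx5 are 9.83 kb apart on chromosome 6, with 1 region between them, at the 97.3rd percentile of its width. Six3, a forebrain and eye gene, and Six2 are 36.5 kb apart with 7 regions between their flanks (median percentile 46.3, against 17.7 in Six3 and 23.9 in Six2). Tbx3 and Tbx5 are 112 kb apart with 29 regions between (46.2, against 12.5 and 44.1), and Nkx2-1 and Pax9 are 155 kb apart with 16 between (55.1, against 8.11 and 52.8). In all 4 intervals the median between the genes was thus above that of either gene, at Dlx6 and Dlx5 from 1 region. Over all regions between genes in the list the median percentile was 54.0. The interval between Nkx2-1 and Pax9 also contains the paralog Nkx2-9.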

How the data were processed

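Genomic DNA of 8 mouse cell lines was captured with a mouse Methyl-Seq kit (Agilent SureSelect XT), per the labels' protocols. The submitters' processing notes name Novoalign 3.7.1, Picard and mm10. What called regions or methylation is not given there. The authors deposited a single region list, which gives each region a whole-number score of at least 100 whose scale is not stated; the track line is of the narrowPeak type, per the file headers. No line has a value of its own, so the IDH comparison and every test between lines were not run, and depth per line is unknown. A further allele of the mouse genotypes is not reported here.

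Regions were assigned to protein-coding genes of RefSeq on GRCm38.p6, the assembly that mm10 names, if they shared at least 1 bp with the gene or 1000 bp to each side. Ends were 1000 bp to each side of the gene start or end. Strand, starts and sequence came from a RefSeq promoter table, which is not complete. Shares of genes have exact (Clopper-Pearson) and medians order-statistic 95% intervals. The functions were tested on simulated regions. Python 3.11.15, numpy 2.4.6, pandas 2.3.3, scipy 1.17.1 and matplotlib 3.10.9 were used. Coordinates count from 1.

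The members and lists (families, brain-expressed and non-neural classes, 43 paralogs) were chosen with earlier results of these data known. Full values are given for the 8 members with the highest scoring region, the 8 highest and the 8 lowest by median percentile with at least 3 regions, the extremes of regions per 10 kb and of each family of 3 or more, and pairs within 200 kb; other named genes, the printed sequences and the ranking by length were chosen after their values were seen. Alternatives were windows of 500 and 2000 bp, region midpoints, scores of 200 or more, regions of 400 to 800 bp, a width match of 20 bp, medians over genes and a smaller classification.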

Additional observations from a re-analysis of the deposited data

How the results depend on the processing

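No paired analysis was possible because the deposited list has no value for a single line, and leaving out a line was not possible for the same reason. All 57 members kept a region under windows of 500 and 2000 bp, region midpoints and scores of 200 or more. Members with a region at an end numbered 51, 56, 52 and 53 in that order, against 55. The median score of member regions, 380, was 471 with scores of 200 or more, which removes low scores by construction, and 472 among the 199 regions of 400 to 800 bp, where all 91698 regions of that width had a median of 635. It stayed between 367 and 391.5 under the other alternatives. The median percentile stayed between 28.1 and 31.2, against 29.9, under the alternatives tried, which include 2 added after seeing the data, regions away from gene ends (31.2) and without the 5 members with most regions (28.1). The difference between brain-expressed and non-neural members in median percentile, 0.044 (-12.6 to 15.0 from the outer bounds of both intervals), was 1.65 without genes classed as having both kinds of site and -2.27 over gene medians, so it had no stable sign. The score has no stated depth, so its counting error is unknown.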

Other observations

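The homeodomain core motif TAATTA (searched on both strands, the same on each) was found in 6 of 49 windows (12.2%), of Barhl1, Emx2, Hand2, Msx2 and Otx2, against 4.53% of 21263 windows. The E-box CACGTG, the same on both strands, was in 2 (4.08%), of Barhl2 and En1, against 7.84%, and the cyclic AMP response element TGACGTCA, also the same on both strands, in 1 (2.04%), of Pax6, against 2.23%. A match describes letters in the window and no binding.

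Across the 57 members the covered share of a gene and its median percentile were inversely related (Spearman rho = -0.30), as they were across 18342 protein-coding genes with a region (rho = -0.24). Genes share the libraries and the capture, so these are descriptions. Evx2 lies 6705 bp from Hoxd13 and Evx1 52618 bp from Hoxa13, and they had 62.5 and 64.1% of their sequence covered.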
